A study of Mus musculus with 9 samples.

Results

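The genes described here carry out fatty acid oxidation in mitochondria and peroxisomes or build the peroxisome. They were chosen by name from a list of 40 genes, of which 38 were rows of the deposited table of 12339 genes. All 38 passed the filter on low values. Ehhadh, a peroxisomal beta-oxidation enzyme, and Ppara, the nuclear receptor that activates many of these genes, are not analysed here. Fatty acids are activated to acyl-CoA, carried into mitochondria by the carnitine shuttle, and shortened in repeated cycles of dehydrogenation, hydration, dehydrogenation and thiolytic cleavage, with electrons passed to the respiratory chain by the electron transfer flavoprotein. Peroxisomes run a parallel pathway for very-long-chain and branched fatty acids, and import their enzymes through proteins called peroxins. In the lung, alveolar type II cells are rich in peroxisomes and make the lipids of surfactant.

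RNA was measured in KP-GFP cells, mouse lung tumour cells that carry GFP (strain label C57BL/6). The cells formed spheroids for 7 days with lung tissue-resident macrophages (TRMs, named in the labels as alveolar macrophages), with bone-marrow monocytes, or alone, and each of these 3 groups has 3 libraries. Every spheroid started from 2500 tumour cells, joined by 5000 TRMs or 5000 monocytes in the co-cultures, and 32 spheroids per condition were pooled before GFP-positive cells were sorted. The question was how each added cell population changed the tumour cells. All groups share the tumour line, the culture time and the sort. Nothing in the labels states whether replicates came from separate cultures, so the p-values reflect only how far these libraries scatter, and that scatter may be technical.

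Over the deposited genes, libraries held 16001895 to 32771448 reads, recovered from the deposited values. Reads of other genes are not counted, so these totals are not sequencing depths. The share of these recovered reads from mitochondrially encoded genes was 0.288% to 0.667%. Values are CPM, reads relative to a scaled library size (described under processing) rather than to the plain total. Errors are SD with n = 3 libraries per group. All 8 epithelial tumour markers were detected in every library, with summed levels of 15234 to 19092 CPM with TRMs, 10431 to 16404 CPM with monocytes and 15159 to 16976 CPM alone. With monocytes 3 of these 8 markers were lower than alone (Cdh1, Cldn4 and Cldn7), and with TRMs 1 was lower (Cldn4). Of 9 alveolar epithelial markers 3 were analysed here, and 2 of them (Sftpd and Abca3) were lower in each co-culture. Of 27 macrophage and monocyte markers 15 were analysed here, and 10 of these stayed under 10 CPM in every library. Their summed level was 178 to 328 CPM with TRMs, 191 to 253 CPM with monocytes and 165 to 252 CPM alone. Without Cd14, the most abundant of them, the sums were 81.9 to 152 CPM with TRMs, 84.6 to 100.3 CPM with monocytes and 28.3 to 71.7 CPM alone. Mrc1 and F13a1, markers of macrophages, were higher in each co-culture, at 32.9 ± 9.27 and 13.4 ± 3.82 CPM with TRMs, 39.2 ± 7.49 and 13.4 ± 5.38 CPM with monocytes, and 5.12 ± 0.211 and 0.960 ± 0.303 CPM alone. With monocytes 3 other markers of the same list were lower than alone: Chil3 (log2 -3.63, limma adjusted p = 0.0066), Ptprc, the leukocyte marker CD45 (-3.82, adjusted p = 0.0361), and Siglecf (-3.95, adjusted p = 0.0413). No marker of the list was lower with TRMs. Ptprc was at most 4.47 CPM and Siglecf at most 1.79 CPM in any library. With monocytes they were at 0.021 to 0.565 and 0.027 to 0.188 CPM, near the floor, so the size of these changes is uncertain. The part of these markers in the results below was not tested, and in pooled cells fewer cells of a type and less RNA per cell cannot be told apart. On the second principal component of all genes (20.9% of the variance) monocyte replicate 3 stood apart at -75.9, against -32.9 to 50.3 in the other 8 libraries.

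Of the 38 genes, 34 did not pass the test with TRMs and 29 did not with monocytes. With TRMs 2 of 38 genes were higher than alone, Acads and Pex5, and 2 were lower, Acsl1 and Abcd3, at a Benjamini-Hochberg adjusted p under 0.05 in limma. These 4 genes are 10.5% of the 38, against 18.4% of all 12326 genes tested (10.2% higher and 8.15% lower), a share below that of genes at large, though the difference was not tested. With monocytes 6 genes were higher than alone, Acads, Cpt2, Hadha, Acaa2, Etfa and Pex14, and 3 were lower, Acsl1, Abcd3 and Pex26. These 9 genes are 23.7% of the 38, near the 27.3% of all genes called in that comparison (14.7% higher and 12.7% lower). At an unadjusted p under 0.05 there were 9 of the 38 with TRMs (23.7%, against 31.2% of all genes) and 10 with monocytes (26.3%, against 38.3%).

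The median log2 fold change over the 38 genes was 0.00 with TRMs against alone and 0.00 with monocytes against alone, beside 0.00 and -0.02 over all genes tested. Single changes ran between -0.67 and 0.76 with TRMs and between -0.86 and 0.94 with monocytes, so every fitted change of the list was under 2-fold. Summed over the 38 genes, the level was 2690 ± 88.7 CPM with TRMs, 2761 ± 159 CPM with monocytes and 2664 ± 161 CPM alone, and the ranges of the 3 groups overlapped. The comparisons with TRMs and with monocytes share the same 3 libraries of tumour cells alone, so genes called in both are not independent findings.

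**Figure D1:**
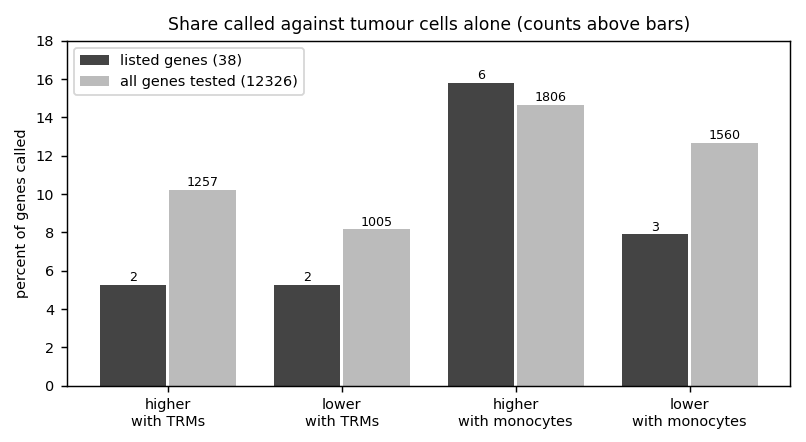
Percent of genes called against tumour cells alone (vertical axis), by direction and co-culture. Dark bars are the 38 listed genes and light bars all 12326 genes tested, with counts above the bars. With TRMs both dark bars are at 5.26%, below the light bars at 10.2% and 8.15%.

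**Figure D2:**
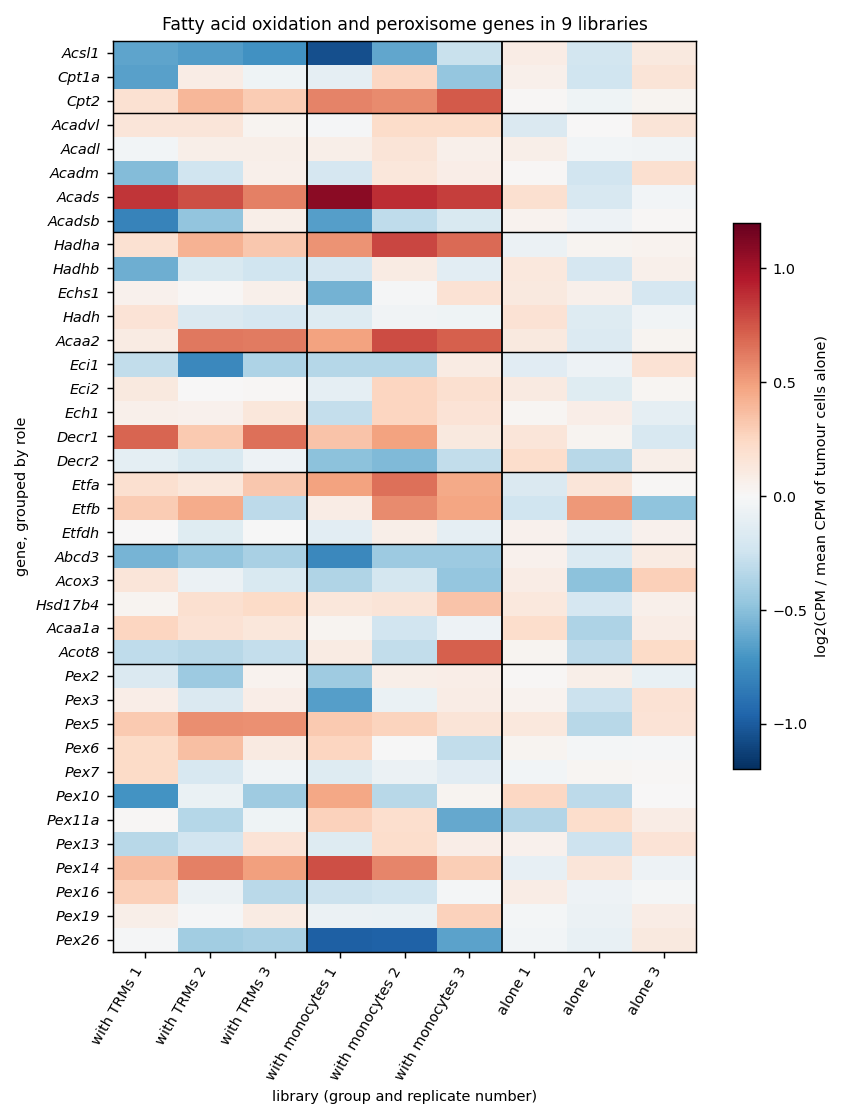
Level of each of the 38 genes (rows, grouped by role) in each library (columns), as log2 of its CPM over the mean CPM of tumour cells alone. Red is higher and blue lower. Acads is red in all 6 co-culture libraries, and Acsl1 and Abcd3 are blue in all 6, while most rows stay pale.

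Levels per kilobase of exon differed widely between the genes. The length counts all annotated exons of a gene, not those of an expressed transcript. It is 8099 bases for Pex7 and 6865 for Acox3, which lowers their values. Etfa, the alpha subunit of the electron transfer flavoprotein, was the most abundant by this measure at 127 CPM per kb over all libraries, followed by Hadh (96.8 CPM per kb), Acadl (80.4 CPM per kb), Ech1 (72.9 CPM per kb) and Acaa2 (67.9 CPM per kb). All 5 act in mitochondria, Ech1 in peroxisomes as well. Abcd3, the transporter that loads acyl-CoA into peroxisomes, led the genes grouped under peroxisomal import and beta-oxidation at 58.6 CPM per kb. The lowest were Pex11a (2.84 CPM per kb), Acox3 (3.42 CPM per kb), Pex10 (3.47 CPM per kb), Pex7 (3.56 CPM per kb) and Etfb (3.75 CPM per kb). Etfb, the beta subunit of the flavoprotein, is uncertain, because 617 of its exon bases (69.1%) lie in the same-strand gene Gm45233 and reads there cannot be told apart.

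In activation and the carnitine shuttle, Acsl1 fell in both co-cultures and Cpt2 rose with monocytes. Acsl1, the long-chain acyl-CoA synthetase that activates fatty acids, measured 21.1, 20.6 and 19.7 CPM with TRMs, 15.8, 21.2 and 27.2 CPM with monocytes, and 34.7, 28.0 and 35.4 CPM alone. Every co-culture library was below every library of tumour cells alone. Acsl1 fell with TRMs (log2 fold change -0.67 ± 0.21 SE, limma adjusted p = 0.041) and with monocytes (-0.64 ± 0.21, adjusted p = 0.0364). Both calls were fragile. The TRM call was lost when any TRM library, either of replicates 1 and 3 alone, or monocyte replicate 2 was left out, with adjusted p up to 0.147. The monocyte call was lost in the fit of the 2 groups compared (adjusted p = 0.0662) and on leaving out replicate 1 or 3 of the tumour cells alone, 2 or 3 of the TRM group, or 1 or 2 of the monocyte group, with adjusted p up to 0.13 (0.0084 to 0.13 over the 18 alternatives). Acsl1 shares 9.13% of its 50-base stretches with the annotated gene Gm45244.

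Cpt1a, which makes acylcarnitine at the outer mitochondrial membrane and is the main control point of the pathway, was not called. It measured 118, 198 and 179 CPM with TRMs, 172, 219.9 and 134 CPM with monocytes, and 193, 157 and 206 CPM alone. The groups overlapped, and the 95% interval of the log2 fold change was -0.65 to 0.26 with TRMs and -0.55 to 0.35 with monocytes. Cpt2, which turns acylcarnitine back into acyl-CoA inside the mitochondrion, measured 40.5, 46.9 and 44.2 CPM with TRMs, 53.9, 53.0 and 59.4 CPM with monocytes, and 36.1, 34.5 and 36.5 CPM alone. The 3 groups did not overlap, with the monocyte libraries highest. Cpt2 rose with monocytes by 0.63 ± 0.14 on the log2 scale (adjusted p = 0.00516), a call kept in all 18 alternatives, and its change with TRMs was 0.29 ± 0.14 (adjusted p = 0.175).

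Among the 5 acyl-CoA dehydrogenases, which open each cycle on chains of different length, Acads was called in both co-cultures and the other 4 in neither. Acads, the short-chain enzyme (chr5:115110299-115119346 on GRCm38, minus strand), measured 118, 112 and 99.3 CPM with TRMs, 138, 120.5 and 116 CPM with monocytes, and 74.8, 57.3 and 63.9 CPM alone. All 6 co-culture libraries lay above the 3 libraries of tumour cells alone. The rise was 1.69-fold with TRMs (log2 0.76 ± 0.14, limma adjusted p = 0.00281) and 1.92-fold with monocytes (0.94 ± 0.14, adjusted p = 0.000451), the largest change of the 38 genes in each comparison. Both calls held in all 18 alternatives, with adjusted p up to 0.018 and 0.00341. Acadvl, Acadl and Acadm, the very-long-, long- and medium-chain enzymes, had log2 fold changes between -0.22 and 0.15 in the 2 comparisons. Acadl was measured tightly, with a 95% interval of -0.22 to 0.29 with TRMs and -0.15 to 0.35 with monocytes. Acadsb, which acts on short and branched chains, measured 39.6, 49.7 and 72.3 CPM with TRMs, 43.5, 55.7 and 60.6 CPM with monocytes, and 71.1, 65.9 and 69.7 CPM alone. Its log2 fold change was -0.40 with TRMs (adjusted p = 0.202) and -0.39 with monocytes (adjusted p = 0.184). TRM replicate 3 was the highest of its group, and without it the TRM change was -0.64 (adjusted p = 0.0434; 0.0434 to 0.551 over the alternatives). Acadvl overlaps Dvl2 on the opposite strand over 976 exon bases (45.02%), and because no source states that the kit marks strand, reads of overlapping genes cannot be told apart.

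**Figure D3:**
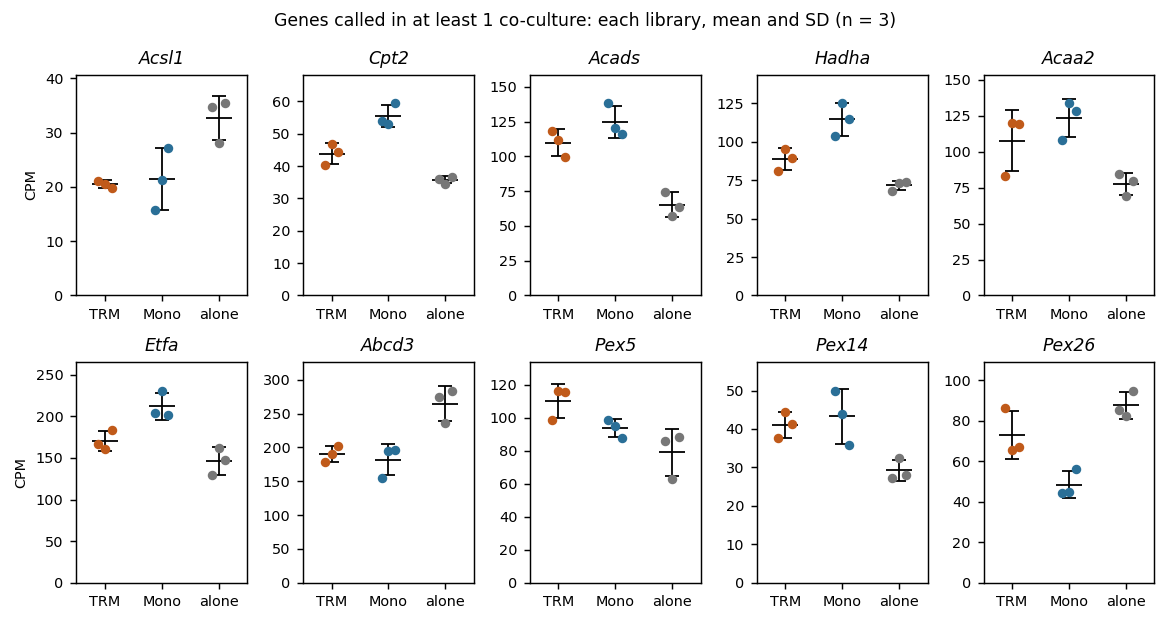
CPM in each library (points) with mean and SD (black, n = 3) for the 10 genes called in at least 1 co-culture, with TRM, monocyte (Mono) and alone groups from left to right and axes from 0. Acads, Cpt2, Hadha and Pex14 are above the tumour cells alone in all 6 co-culture libraries, and Acsl1 and Abcd3 are below them.

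The promoters of the 3 genes called in both co-cultures are given next. Each window runs 250 bases before to 50 bases after the RefSeq start (GRCm38.p6), 5′ to 3′ on the gene's strand, and capitals mark GC boxes (GGGCGG on either strand). Acads has 1 GC box in chr5:115119297-115119596 (minus strand), Acsl1 has 7, some overlapping, in chr8:46470787-46471086 (plus strand), and Abcd3 has none in chr3:121815253-121815552 (minus strand). RefSeq lists a further window for Acsl1 and for Abcd3, each downstream of the one shown, and neither holds a GC box. The window nearest the gene's annotated start was used for every gene.
Acads: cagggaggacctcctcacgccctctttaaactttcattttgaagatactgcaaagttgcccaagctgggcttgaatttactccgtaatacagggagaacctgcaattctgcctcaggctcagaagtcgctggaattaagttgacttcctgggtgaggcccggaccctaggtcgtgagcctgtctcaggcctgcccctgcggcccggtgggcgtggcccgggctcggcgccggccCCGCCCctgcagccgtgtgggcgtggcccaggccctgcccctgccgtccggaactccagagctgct
Acsl1: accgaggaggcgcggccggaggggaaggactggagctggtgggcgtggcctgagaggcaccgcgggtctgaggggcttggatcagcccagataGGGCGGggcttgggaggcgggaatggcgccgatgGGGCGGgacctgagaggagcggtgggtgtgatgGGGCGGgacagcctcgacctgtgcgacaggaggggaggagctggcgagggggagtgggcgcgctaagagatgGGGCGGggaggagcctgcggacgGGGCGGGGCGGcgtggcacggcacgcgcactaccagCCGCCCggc
Abcd3: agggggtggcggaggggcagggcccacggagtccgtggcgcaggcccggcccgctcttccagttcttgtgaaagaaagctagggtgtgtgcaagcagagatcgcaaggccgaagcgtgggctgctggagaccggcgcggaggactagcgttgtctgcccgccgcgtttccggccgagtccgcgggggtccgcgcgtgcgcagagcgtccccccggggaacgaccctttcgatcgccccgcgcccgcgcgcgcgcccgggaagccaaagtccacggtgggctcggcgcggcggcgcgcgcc
GC boxes were found in 26 of the 33 listed genes with a RefSeq window (78.8%), against 65.0% of 9775 genes of the table and 35.7% of all 32851 windows. The bases AGGTCANAGGTCA, a direct repeat to which PPAR and RXR receptors bind, were found on either strand in none of the 33, against 0.0512% of the table's genes (5 of 9775). With so rare an exact match, absence from 33 genes does not tell whether they hold sites for these receptors. The single hexamer AGGTCA was found in 4 (Acadm, Acadvl, Cpt1a and Echs1; 12.1%), against 11.9%. CCAAT was present in 10 (30.3%, against 38.7%) and ACGTG in 4 (12.1%, against 25.4%). A match describes the letters in these windows only.

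In the later steps of the mitochondrial cycle, Hadha and Acaa2 rose with monocytes and no gene was called with TRMs. Hadha and Hadhb encode the alpha and beta subunits of the mitochondrial trifunctional protein, which hydrates, dehydrogenates and cleaves long-chain acyl-CoA. Hadha measured 81.1, 95.3 and 89.5 CPM with TRMs, 104, 125 and 115 CPM with monocytes, and 68.0, 73.2 and 73.5 CPM alone. All co-culture libraries were above the tumour cells alone, and all monocyte libraries above all TRM libraries. Hadha rose with monocytes by 0.67 ± 0.13 on the log2 scale (limma adjusted p = 0.0023, at most 0.014 in 18 alternatives). With TRMs its change was 0.31 ± 0.13 (adjusted p = 0.13). Hadhb measured 32.3, 42.5 and 41.0 CPM with TRMs, 42.1, 51.9 and 44.2 CPM with monocytes, and 52.8, 42.0 and 50.4 CPM alone. The Hadhb groups overlapped, and its log2 fold change was -0.33 ± 0.17 with TRMs (adjusted p = 0.201) and -0.07 ± 0.17 with monocytes (adjusted p = 0.794).

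The ratio of Hadha to Hadhb CPM was therefore taken in each library, a measure chosen after the values were seen. It was 2.52, 2.24 and 2.18 with TRMs, 2.47, 2.41 and 2.59 with monocytes, and 1.29, 1.74 and 1.46 alone. All 6 co-culture ratios exceeded the 3 of the tumour cells alone. On the log2 scale the ratio was higher by 0.64 with TRMs and by 0.74 with monocytes. The exact permutation p (two-sided) was 0.1 for each, the smallest that 3 against 3 libraries allow. With groups already seen to be separate this p could take no other value, so it adds nothing to the ratios. Both comparisons use the same 3 libraries of tumour cells alone, and the share of other gene pairs separated in this way was not counted. Since the ratio is taken within a library, it does not depend on how libraries were scaled. Per kilobase of exon, Hadha was at 22.1 and Hadhb at 18.6 CPM per kb with TRMs, 28.5 and 22.1 CPM per kb with monocytes, and 17.8 and 23.3 CPM per kb alone. Hadhb shares 18.1% of its 50-base stretches with the annotated gene Gm13910, and the authors' counting could split reads between them.

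**Figure D4:**
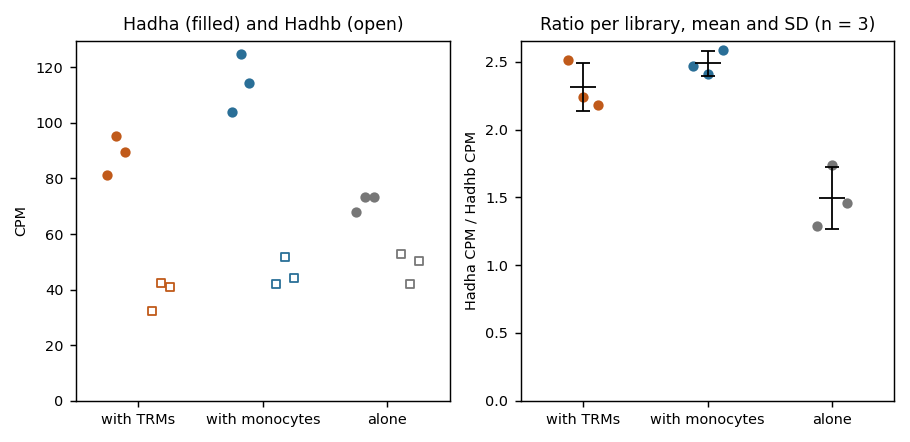
Left, CPM of Hadha (filled circles) and Hadhb (open squares) in each library. Right, their ratio per library with mean and SD (n = 3). The ratio is 2.18 to 2.59 in the 6 co-culture libraries and 1.29 to 1.74 in the 3 libraries of tumour cells alone.

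Hadha (chr5:30118304-30155162, minus strand) and Hadhb (chr5:30155248-30184593, plus strand) lie head to head on GRCm38 and their promoter windows overlap, which is why both are shown. Their RefSeq windows, chr5:30154931-30155230 (minus strand) and chr5:30155003-30155302 (plus strand), have starts 273 bases apart and overlap by 228 bases. Capitals mark the shared bases, which read on opposite strands in the windows.
Hadha: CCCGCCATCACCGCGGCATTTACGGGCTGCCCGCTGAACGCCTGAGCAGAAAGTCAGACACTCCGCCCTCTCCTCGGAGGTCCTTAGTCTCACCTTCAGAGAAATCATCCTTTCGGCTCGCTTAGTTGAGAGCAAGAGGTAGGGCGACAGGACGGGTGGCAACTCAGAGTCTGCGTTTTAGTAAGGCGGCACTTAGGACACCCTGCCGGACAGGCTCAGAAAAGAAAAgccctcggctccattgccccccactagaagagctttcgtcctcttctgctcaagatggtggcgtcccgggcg
Hadhb: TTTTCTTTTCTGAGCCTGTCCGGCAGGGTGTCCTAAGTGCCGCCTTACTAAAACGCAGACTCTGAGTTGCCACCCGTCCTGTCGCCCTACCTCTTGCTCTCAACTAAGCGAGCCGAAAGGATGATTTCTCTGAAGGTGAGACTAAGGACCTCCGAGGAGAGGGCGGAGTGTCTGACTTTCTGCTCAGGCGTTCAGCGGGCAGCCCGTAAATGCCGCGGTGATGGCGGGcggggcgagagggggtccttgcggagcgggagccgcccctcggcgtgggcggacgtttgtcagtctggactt

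Acaa2, the mitochondrial thiolase that releases acetyl-CoA, measured 83.4, 120.4 and 119 CPM with TRMs, 108, 134 and 128 CPM with monocytes, and 84.3, 69.4 and 79.5 CPM alone. The monocyte libraries were all above the tumour cells alone, and TRM replicate 1 lay within their range. Acaa2 rose with monocytes by 0.67 ± 0.17 on the log2 scale (adjusted p = 0.00931), a call kept in all 18 alternatives. With TRMs the change was 0.46 ± 0.17 (adjusted p = 0.0742), and it was called in DESeq2 (adjusted p = 0.0443) and without TRM replicate 1 (log2 0.63, adjusted p = 0.0152), with adjusted p between 0.0152 and 0.265 over the alternatives. Echs1 and Hadh, the short-chain hydratase and the hydroxyacyl-CoA dehydrogenase of the same cycle, were not called, with log2 fold changes between -0.13 and 0.05.

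None of the 5 auxiliary enzymes, which deal with unsaturated chains, was called in either comparison. Decr1, the mitochondrial dienoyl-CoA reductase, measured 17.7, 13.5 and 17.2 CPM with TRMs, 13.8, 15.2 and 11.8 CPM with monocytes, and 12.03, 11.1 and 9.54 CPM alone. Its TRM libraries were all above the tumour cells alone, with a log2 fold change of 0.56 ± 0.22 (adjusted p = 0.0899). Eci1, a mitochondrial enoyl-CoA isomerase, was at 26.2 ± 4.46 CPM with TRMs, 32.0 ± 5.86 CPM with monocytes and 36.2 ± 4.12 CPM alone (TRM change -0.48 ± 0.19, adjusted p = 0.106). Decr2, the peroxisomal counterpart of Decr1, had a change of -0.42 ± 0.17 with monocytes (adjusted p = 0.0822) and was called lower there in DESeq2 (adjusted p = 0.0474) and without alone replicate 2 (adjusted p = 0.0218), with adjusted p between 0.0218 and 0.292 over the alternatives. Eci2 and Ech1 had log2 fold changes between 0.05 and 0.12.

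In electron transfer Etfa rose with monocytes, and neither Etfb nor Etfdh was called. Etfa measured 167, 161 and 183 CPM with TRMs, 204, 231 and 201 CPM with monocytes, and 129.6, 162 and 147 CPM alone. The monocyte libraries were above all others, and the TRM libraries overlapped with the tumour cells alone. Etfa rose with monocytes by 0.54 ± 0.13 on the log2 scale (adjusted p = 0.00829), and the call was kept in all 18 alternatives with adjusted p up to 0.0498. With TRMs the change was 0.22 ± 0.13 (adjusted p = 0.27). Etfdh, which hands the electrons to ubiquinone, was at 111 ± 6.35 CPM with TRMs, 110.5 ± 8.51 CPM with monocytes and 115 ± 6.98 CPM alone, with 95% intervals of -0.32 to 0.22 and -0.33 to 0.22. Etfb was at 3.31 ± 0.857 CPM with TRMs, 3.83 ± 0.644 CPM with monocytes and 2.92 ± 1.12 CPM alone and was not called.

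**Figure D5:**
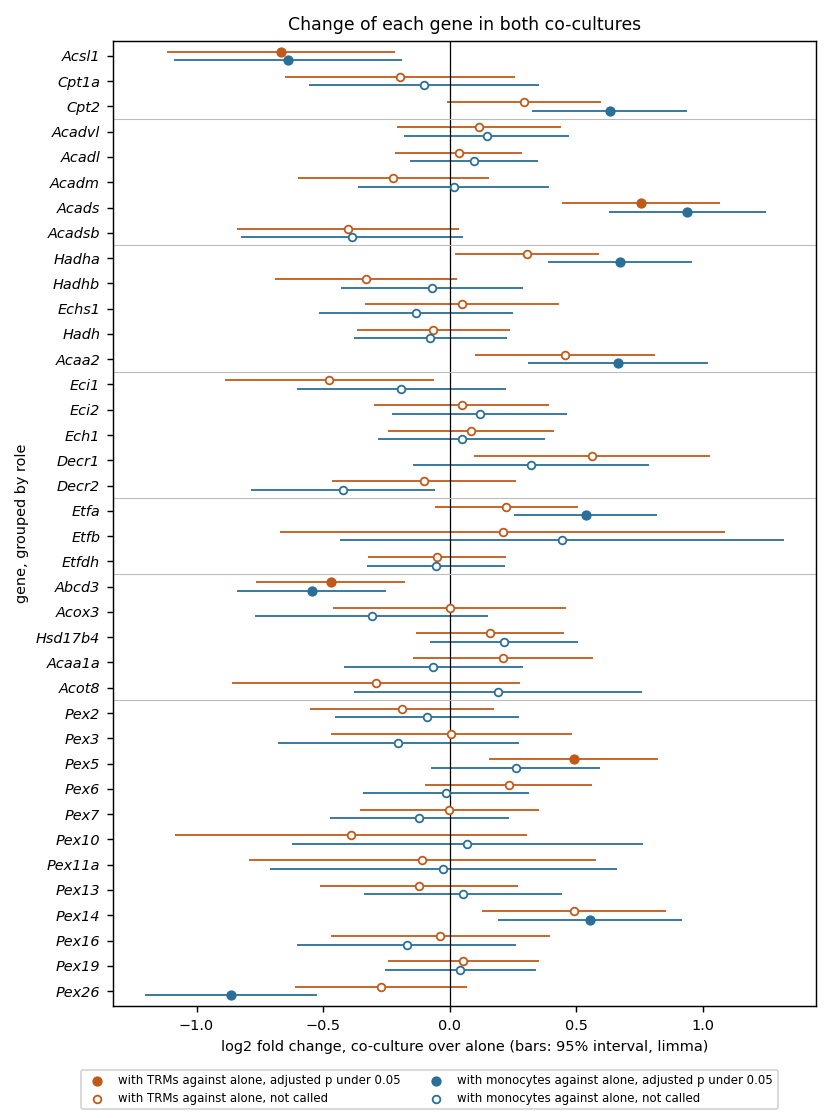
Log2 fold change of each of the 38 genes (rows, grouped by role) with its 95% interval from limma, with TRMs against alone (orange, upper) and with monocytes against alone (blue, lower). Filled points have an adjusted p under 0.05. Filled points stand on both sides of 0, and every change lies between -0.86 and 0.94.

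On the peroxisomal side the transporter Abcd3 fell in both co-cultures, and none of the 4 enzymes was called. Abcd3, an ABC transporter of the peroxisomal membrane that carries acyl-CoA inward, measured 179, 191 and 202 CPM with TRMs, 155, 195 and 196 CPM with monocytes, and 274, 236 and 284 CPM alone. All 6 co-culture libraries were below the 3 of the tumour cells alone. Abcd3 fell with TRMs (log2 -0.47 ± 0.14, limma adjusted p = 0.0295) and with monocytes (-0.54 ± 0.14, adjusted p = 0.00994). The TRM call was lost without any 1 of the TRM libraries or without alone replicate 1 or 3 (adjusted p 0.052 to 0.125; 0.00504 to 0.125 over the alternatives), and the monocyte call was lost without alone replicate 3 (adjusted p = 0.0528; 0.000681 to 0.0528 over the alternatives). The direction held in every alternative.

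Hsd17b4, the bifunctional enzyme of peroxisomal beta-oxidation, was at 124 ± 8.73 CPM with TRMs, 129 ± 10.4 CPM with monocytes and 111 ± 12.9 CPM alone, with the monocyte libraries all above the tumour cells alone (log2 0.22, adjusted p = 0.265). Acaa1a, the peroxisomal thiolase, was at 69.7 ± 3.08 CPM with TRMs, 57.8 ± 5.24 CPM with monocytes and 61.1 ± 12.2 CPM alone, and it shares 12.4% of its 50-base stretches with Acaa1b. Acox3, an acyl-CoA oxidase for branched chains, and Acot8, a thioesterase, had log2 fold changes between -0.31 and 0.19. The Acot8 monocyte libraries were spread, at 14.5, 11.0 and 22.1 CPM, with monocyte replicate 3 highest.

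Of the 12 peroxins 9 were not called in either comparison, and 3 were called in 1 comparison each: Pex5 was higher with TRMs, Pex14 was higher with monocytes and Pex26 was lower with monocytes. Pex5, the receptor that brings matrix enzymes to the peroxisome, measured 98.6, 116 and 116 CPM with TRMs, 98.5, 95.004 and 87.8 CPM with monocytes, and 86.1, 62.7 and 88.6 CPM alone. The TRM libraries were above the tumour cells alone, and the monocyte libraries overlapped with them. Pex5 rose with TRMs by 0.49 ± 0.16 on the log2 scale (limma adjusted p = 0.0419). The call was lost when libraries were scaled by their totals (0.41, adjusted p = 0.0813) and without any 1 of the libraries alone, without replicate 2 or 3 with TRMs, or without replicate 2 with monocytes, with adjusted p between 0.0292 and 0.15 over the alternatives. With monocytes the change was 0.26 ± 0.16 (adjusted p = 0.236).

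Pex14, the membrane protein at which the loaded receptor docks, measured 37.7, 44.4 and 41.2 CPM with TRMs, 49.97, 43.9 and 35.9 CPM with monocytes, and 27.3, 32.4 and 28.0 CPM alone. All 6 co-culture libraries were above the tumour cells alone. Pex14 rose with monocytes by 0.56 ± 0.17 on the log2 scale (adjusted p = 0.026), a call lost in the fit of the 2 groups compared (adjusted p = 0.0507) and on leaving out replicate 1 or 3 of the tumour cells alone or 1 or 2 of the monocyte group (adjusted p up to 0.0922). With TRMs the change was 0.49 ± 0.17 and missed the threshold (adjusted p = 0.059; 0.0366 to 0.207 over the alternatives). Pex14 overlaps the antisense gene Gm17029 over 630 exon bases (31.4%), and their reads cannot be told apart. Pex13, the other docking protein named here, was not called.

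Pex26, which anchors Pex6, an ATPase that helps pull the receptor back out of the membrane, measured 86.6, 65.7 and 66.9 CPM with TRMs, 44.3, 44.6 and 56.0 CPM with monocytes, and 85.3, 82.5 and 94.9 CPM alone. The monocyte libraries were below all others, and the TRM libraries overlapped with the tumour cells alone. Pex26 fell with monocytes by 0.86 on the log2 scale (-0.86 ± 0.16, adjusted p = 0.00145), a call kept in all 18 alternatives. With TRMs the change was -0.27 ± 0.16 (adjusted p = 0.268). Pex6 itself was at 96.7 ± 8.41 CPM with TRMs, 82.3 ± 15.5 CPM with monocytes and 82.1 ± 1.79 CPM alone, and was not called. The remaining peroxins cover ubiquitin ligase subunits (Pex2 and Pex10), the second import receptor (Pex7), membrane protein insertion (Pex3, Pex16 and Pex19) and division (Pex11a). The changes of the uncalled peroxins, Pex5 and Pex14 aside, ran between -0.39 and 0.23 with TRMs, and the widest interval was that of Pex10, -1.08 to 0.31.

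Between the co-cultures none of the 38 genes was called by limma, against 0.398% of all genes tested (0.325% higher and 0.073% lower), and edgeR also called none. DESeq2 called Pex26. At an unadjusted p under 0.05 there were 4 of 38 genes (10.5%, against 11.7% of all genes): Pex26 was higher with TRMs than with monocytes, and Cpt2, Hadha and Etfa were lower. Pex26 had the smallest p, with a log2 fold change of 0.59 ± 0.16 (limma adjusted p = 0.129, and 0.0245 in DESeq2; 0.0245 to 0.393 over the alternatives). The log2 changes of Hadha, Cpt2 and Etfa were -0.37, -0.34 and -0.31, with adjusted p of 0.275, 0.363 and 0.358 in limma. The groups did not overlap for any of these 4 genes. They were picked by their p-value, and the share of all genes without overlap was not counted. Genes called with monocytes and not with TRMs against the tumour cells alone are thus not shown to differ between the co-cultures.

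The authors' deposited tables of edgeR comparisons were read at a false discovery rate under 0.05. In the authors' deposited table for monocytes 6 of the 38 genes were higher (Acads, Cpt2, Hadha, Acaa2, Etfa and Pex14) and 3 lower (Acsl1, Abcd3 and Pex26). In the authors' deposited table for TRMs 3 were higher (Acads, Pex5 and Acaa2) and 2 lower (Acsl1 and Abcd3), with a false discovery rate of 0.0478 for Acaa2, which limma did not call. The shares were 23.7% of the 38 against 28.2% of 11081 genes in the authors' deposited table for monocytes, and 13.2% against 23.7% of 11085 genes in that for TRMs.

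Around the 38 genes, 9 further lists of the same pathways held 113 tested genes of 137 listed. With TRMs 11 of the 113 were higher and 21 lower (28.3% called), and with monocytes 11 were higher and 17 lower (24.8%), beside the 18.4% and 27.3% of all genes. Their median log2 fold change was -0.10 with TRMs and -0.13 with monocytes. Values are given as log2 fold changes against the tumour cells alone, with TRMs before monocytes.

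Of 10 further activation and carnitine genes, 1 was higher and 3 were lower with TRMs, and 2 were lower with monocytes. Acsl4, an acyl-CoA synthetase for polyunsaturated chains, was at 209 ± 24.7 CPM with TRMs, 172 ± 53.2 CPM with monocytes and 350.2 ± 14.8 CPM alone (log2 -0.75 and -1.08, limma adjusted p = 0.0195 and 0.00163). Slc22a5, the carnitine transporter, was lower in both comparisons (-0.89 and -0.75, adjusted p = 0.0257 and 0.0407), Acsl5 was lower with TRMs (-0.47, adjusted p = 0.0177), and Slc27a4, a fatty acid transport protein, was higher with TRMs (0.82, adjusted p = 0.0108). Apart from Slc27a4 with TRMs and Acsl4 with monocytes, these calls were lost when single libraries were left out, with adjusted p up to 0.169. Among 14 further acyl-CoA dehydrogenase and propionate genes none was higher and 2 were lower with TRMs (Hsd17b10 and Pcca, both lost when single libraries were left out), and 1 was higher (Acat1, 0.60, adjusted p = 0.00337) and 1 lower (Ivd, -0.53, adjusted p = 0.0129, and 0.0511 without monocyte replicate 2) with monocytes.

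Among 13 further genes listed under peroxisomal beta- and alpha-oxidation, 1 was higher (Abcd4) and 2 were lower (Acox2 and Phyh) in each comparison. These 3 genes had larger fold changes than any of the 38. Acox2, the oxidase for bile acid precursors and branched chains, measured 31.1, 23.8 and 16.3 CPM with TRMs, 14.999, 14.6 and 39.2 CPM with monocytes, and 92.9, 73.2 and 90.4 CPM alone. All co-culture libraries were below the tumour cells alone, and Acox2 was 3.71-fold lower with TRMs and 4.15-fold lower with monocytes (log2 -1.89 and -2.05, limma adjusted p = 0.00168 and 0.000638). Phyh, which starts alpha-oxidation of phytanic acid, was at 6.25 ± 1.30 CPM with TRMs, 7.54 ± 2.49 CPM with monocytes and 18.2 ± 2.66 CPM alone (-1.55 and -1.31, adjusted p = 0.00233 and 0.00448). Abcd4 is named for its likeness to the peroxisomal transporters but is known to act in lysosomal cobalamin export. It was at 45.7 ± 3.71 CPM with TRMs, 56.7 ± 5.94 CPM with monocytes and 21.0 ± 3.77 CPM alone (1.13 and 1.44, limma adjusted p = 0.000661 and 8.47e-05).

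Other peroxisomal matrix and membrane genes changed in both directions, with 3 higher and 5 lower of 23 with TRMs, and 4 higher and 6 lower with monocytes. Prdx5, a peroxiredoxin found in mitochondria and peroxisomes, was at 236 ± 17.5 CPM with TRMs, 177 ± 36.8 CPM with monocytes and 101 ± 9.17 CPM alone (1.23 and 0.80, limma adjusted p = 0.000152 and 0.00197). Cat, the peroxisomal catalase, was at 97.2 ± 3.80 CPM with TRMs, 110.5 ± 0.989 CPM with monocytes and 173 ± 11.7 CPM alone (-0.83 and -0.64, adjusted p = 0.000444 and 0.00165). Acbd5, which tethers peroxisomes to the endoplasmic reticulum, was lower (-0.76 and -0.97, adjusted p = 0.00969 and 0.00159), with the TRM call lost on leaving out replicate 3 of the tumour cells alone or replicate 2 with TRMs (adjusted p up to 0.059). Ephx2, an epoxide hydrolase, was higher, at 6.93 ± 1.34 CPM with TRMs, 4.31 ± 1.42 CPM with monocytes and 1.34 ± 0.558 CPM alone (2.45 and 1.73, adjusted p = 0.00183 and 0.00998).

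Of 19 genes of PPAR receptors, coactivators and targets, 3 were higher and 4 lower with TRMs, and 2 were higher and 2 lower with monocytes. Angptl4, a secreted inhibitor of lipoprotein lipase that PPARs and hypoxia induce, measured 456, 890.2 and 775 CPM with TRMs, 761, 759.6 and 514 CPM with monocytes, and 122, 154 and 151 CPM alone. It was 4.81-fold higher with TRMs and 4.72-fold higher with monocytes (log2 2.27 and 2.24, limma adjusted p = 3.35e-05 and 3.15e-05). Plin2, which coats lipid droplets, was higher (0.84 and 0.52, adjusted p = 0.00414 and 0.0381), the second of these lost on leaving out replicate 1 or 3 of the tumour cells alone, replicate 3 with TRMs or replicate 2 with monocytes (adjusted p up to 0.165). Ncoa1, a nuclear receptor coactivator, was lower (-1.04 and -1.18, adjusted p = 0.0106 and 0.00353), with the TRM call lost without alone replicate 3 (adjusted p = 0.0558). Of 14 lipid droplet and lipolysis genes, 2 were higher and 1 lower with TRMs, and 1 was higher and 2 lower with monocytes. Hilpda, an inhibitor of the lipase Pnpla2, was at 200.5 ± 32.7 CPM with TRMs, 142 ± 26.5 CPM with monocytes and 96.6 ± 28.0 CPM alone (1.08 and 0.58, adjusted p = 0.00236 and 0.0471), and its monocyte call was lost in 10 of 18 alternatives (adjusted p up to 0.193).

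Of 10 genes of AMPK and the malonyl-CoA brake on Cpt1a, none was higher and 2 were lower with TRMs (Prkag2 and Prkaa2), and 1 was higher (Prkag1) and 1 lower (Prkab2) with monocytes. Each of these 4 calls was lost when single libraries were left out. Of 6 ketone body genes 1 was higher and 1 lower in each comparison. Oxct1, which activates ketone bodies for oxidation, was at 93.6 ± 26.0 CPM with TRMs, 101 ± 19.2 CPM with monocytes and 194 ± 22.8 CPM alone (-1.08 and -0.95, limma adjusted p = 0.00197 and 0.00287). Aacs, which spends acetoacetate on lipid synthesis, was at 127 ± 9.41 CPM with TRMs, 136 ± 10.5 CPM with monocytes and 86.1 ± 8.14 CPM alone (0.56 and 0.66, adjusted p = 0.00992 and 0.00278), with the TRM call lost without TRM replicate 2 (adjusted p = 0.0568).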

How the data were processed

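RNA from sorted tumour cells was amplified with SMART-Seq v4 from 1 ng and sequenced on an Illumina NextSeq instrument, per the labels' protocols. Cells had been dissociated for 20 min at 37 °C, and 20000 to 170000 were sorted. STAR 2.5, edgeR and the mm10 build are named in the submitters' processing notes, while neither a counting tool nor an annotation is named in the sources used here. The deposited values are a scaled signal on the CPM scale: all 111051 are whole reads plus 0.5 (within 1e-06 reads) divided by a scaled library size. In every library that size was 1.001 times the one that edgeR's TMM scaling gave for the recovered reads. The authors' deposited comparison tables hold log2 fold changes, p-values and a likelihood ratio score, per the file headers.

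The log2 of the deposited values was tested in limma 3.58.1 (R 4.3.3) with a variance trend, over all 9 libraries with 6 residual degrees of freedom. Tests were two-sided, with Benjamini-Hochberg adjustment over 12326 genes after a filter (edgeR 4.0.16, minimum count 10, minimum total 15) removed 13 genes. The deposited values are not whole counts, so edgeR's quasi-likelihood test, DESeq2 1.42.0 and limma-voom on the recovered reads were alternatives, beside other scalings and filters, a replicate block and leaving out each library (18 in all). Python 3.11.15, scipy 1.17.1 and matplotlib 3.10.9 were used for tables, the exact test and plots. Positions are from GENCODE M21 and promoter windows from RefSeq (GRCm38.p6).

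The members and lists were chosen with earlier results of these data known. All 40 listed genes are accounted for by role, those called at an adjusted p under 0.05 have every library's value, and at most 4 genes per further list are named, by smallest adjusted p. Some genes of the further lists are not reported here.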

Additional observations from a re-analysis of the deposited data

Results flagged for a closer look

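Vldlr, the very-low-density lipoprotein receptor, which takes up triglyceride-rich particles, is on the list of PPAR target genes and differed between the co-cultures. It measured 57.2, 69.3 and 62.6 CPM with TRMs, 21.2, 29.8 and 33.1 CPM with monocytes, and 34.6, 35.3 and 26.3 CPM alone. The TRM libraries were above all others, and the monocyte libraries overlapped with the tumour cells alone. Its log2 fold change with TRMs against monocytes was 1.19 (limma adjusted p = 0.0241; 1.09e-05 to 0.131 over the alternatives). The call was lost without any 1 of the TRM libraries or without monocyte replicate 1 or 2. Against the tumour cells alone the change was 0.98 with TRMs (adjusted p = 0.0035) and -0.21 with monocytes (adjusted p = 0.467). It was the only one of the 113 tested genes of the further lists called between the co-cultures by limma (0.885%, against 0.398% of all genes tested). A single call of 113 does not set these lists apart from genes at large.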

How the results depend on the processing

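No log2 fold change that was called changed its sign in the 18 alternatives. With TRMs, 2 genes were higher in limma, 4 in DESeq2 and 1 with libraries scaled by their totals, and 1 to 3 when single libraries were left out. Of all genes, 1257, 1436 and 1003 were higher in these fits, and 671 to 1421 without single libraries. The genes lower with TRMs numbered 0 to 2 without single libraries, and were 0 on leaving out replicate 1 or 3 of the tumour cells alone or 1 or 2 of the TRM group. Calls over all genes fell in the same fits, to 617, 536, 814 and 548 genes lower, against 1005 with all libraries. With monocytes 5 to 6 genes were higher and 1 to 4 lower without single libraries, with 1 lower without alone replicate 3. Of all genes, 1281 to 1856 were then higher and 942 to 1673 lower, the fewest lower also without alone replicate 3, against 1806 and 1560 with all libraries. Between the co-cultures DESeq2 called 1 gene higher with TRMs, and leaving out libraries gave 0. The causes were not tested. Scaling by totals shifted the median log2 fold change of all genes by -0.09 with TRMs, and 1003 genes were then higher and 1302 lower, against 1257 and 1005. Between the co-cultures the number of all genes called was 49 in limma, 44 in edgeR, 86 in limma-voom, 75 with log2(value + 1) and 336 in DESeq2, and it ran between 0 (without TRM replicate 2) and 134 (without monocyte replicate 3). Correlations of same-numbered deviations between groups ran from -0.02 to 0.43, which does not settle whether replicate numbers pair the libraries. Replicate 1 matched replicate 1 best in each pair of groups (0.17, 0.43 and 0.15), while replicates 2 and 3 did so only in part. With a replicate block, 2 of the 38 genes were higher and 2 lower with TRMs, 6 higher and 3 lower with monocytes, and 0 between the co-cultures, and 79 of all genes were called between the co-cultures.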
